A study of Mus musculus with 29 samples.

Results

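All 37 genes of the mouse mitochondrial chromosome were followed across 29 RNA sequencing libraries. They were chosen by their place on that chromosome and their mt- symbols, by a rule that uses no measured value, although earlier results of these data were known. They make up 13 protein-coding, 2 ribosomal RNA (rRNA) and 22 transfer RNA (tRNA) genes. The crypt files list 47729 genes in all, the tissue files 49585 and the organoid files 52550. The study compared mouse small intestine with and without Rnaseh2b, read here from the series title as the gene behind the label H2B. The protein made from Rnaseh2b belongs to RNase H2, which cuts DNA at stray ribonucleotides so that they can be replaced. The suffix dIEC was read as deletion in intestinal epithelial cells, and the promoter that drove the deletion is not given in the sources used here.

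The libraries fall into 8 groups, all from C57BL/6 mice. Epithelial crypts came from 4 H2BdIEC mice (libraries Crypt_975, Crypt_976, Crypt_978 and Crypt_979) and from 4 H2B flox/flox mice (Crypt_970, Crypt_971, Crypt_972 and Crypt_981), all aged 52 weeks. Tumor tissue and non-tumor tissue beside it came from the same 4 H2B/p53dIEC mice (1319, 1322, 1323 and 1349). By label these mice carry a deletion of p53 in intestinal epithelial cells as well. Non-tumor tissue of 4 H2B/p53flox/flox mice (1315, 1316, 1320 and 1321) served as tissue control, although its label reads as adjacent normal tissue. Intestinal organoids, epithelial structures grown in culture, had the genotypes H2B/p53dIEC (libraries 1, 2 and 3), H2BdIEC (A, B and C) and H2B/p53flox/flox (A, B and C). That last group is titled WT, and the series design gives it as H2Bfl/fl, so its p53 allele is uncertain and it is called the organoid control here. The controls thus carry floxed alleles and no deletion. Ages are given for the crypt donors only. The labels tie no organoid library to a mouse, so p-values among organoids rest on differences between libraries that may be technical repeats. The titles of the H2B/p53dIEC organoids lack a prefix that the other organoid titles share, so that prefix and the genotype cannot be told apart. Within each group, values below are listed in the order in which its mice or libraries are named here.

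Mitochondrial DNA is transcribed from both strands into long RNAs that span many genes. The tRNAs lie between the other genes, and cutting the tRNAs out of the long RNA releases the mRNAs and rRNAs. The proteins are membrane subunits of the respiratory chain complexes I, III and IV and of ATP synthase, while all other subunits of these complexes, and the proteins that copy, transcribe and translate mitochondrial DNA, come from nuclear genes. In the intestinal epithelium, respiration supplies ATP for nutrient uptake, and stem cells, Paneth cells and absorptive enterocytes are known to rely on it to different degrees.

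Gene counts totalled 15545059 to 18817537 in H2BdIEC crypts and 23118463 to 25913155 in control crypts, so the 2 groups did not overlap in depth. Tissue libraries held 21884287 to 41504298 counts, except tissue control 1320 with 401365, and organoid libraries held 13219451 to 21386586, except H2BdIEC A with 5774771. Rnaseh2b averaged 2.50 CPM (counts scaled to library size) in H2BdIEC crypts and 10.6 in control crypts. It averaged 4.39 CPM in tumors, 4.12 in adjacent tissue and 16.1 in tissue controls. In organoids it averaged 1.65 CPM in H2B/p53dIEC, 5.83 in H2BdIEC and 16.6 in controls. Trp53, the gene of p53, averaged 19.8 CPM in tumors, 21.3 in adjacent tissue and 44.8 in tissue controls. The 8 smooth muscle markers summed to 286 to 828 CPM in tumors, 2948 to 4383 in adjacent tissue and 4445 to 7214 in tissue controls, against 1.81 to 10.3 in H2BdIEC crypts and 0.796 to 16.0 in control crypts. The tissue samples thus held gut wall as well as epithelium, whereas crypts held little smooth muscle. In organoids 0 of these markers held enough counts to be tested. The sums do not show that crypts were epithelium alone, since 9 immune, 6 fibroblast and 7 acinar pancreas markers held enough counts to be tested there. All samples are bulk RNA, in which fewer cells of a type and less RNA per cell cannot be told apart.

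Several members share their sequence with nuclear genes or with each other, which bears on how reads are counted. The mouse nuclear genome holds copies of mitochondrial DNA, and on the GRCm38 build 7 annotated pseudogenes within chr1:24611535-24616197 (minus strand) match all or part of mt-Nd4, mt-Nd4l, mt-Nd3, mt-Co3, mt-Atp6, mt-Co2 and mt-Co1. The share of 50-base words of a mitochondrial gene that also occur in an annotated nuclear transcript was 100% for mt-Co2, 99.9% for mt-Co3, 99.5% for mt-Atp6, 98.8% for mt-Nd4l and 98.0% for mt-Nd3. It was 62.2% for mt-Nd4, 51.1% for mt-Co1, 8.19% for mt-Nd2, 7.61% for mt-Nd5 and 1.04% for mt-Rnr2, and 0 for mt-Nd1, mt-Nd6, mt-Cytb, mt-Atp8, mt-Rnr1 and all 22 tRNA genes. To show the contrast, 60 bases of mt-Co3 (chrM:8968-9027, plus strand) are given with their copy in Gm28437 (chr1:24613551-24613610, minus strand), and 60 bases of mt-Co1 (chrM:5787-5846, plus strand) with their copy in Gm13340 (chr2:22589129-22589188, minus strand). Capitals mark bases that differ between gene and copy, and sequences come from GENCODE M21 transcripts on GRCm38.
mt-Co3: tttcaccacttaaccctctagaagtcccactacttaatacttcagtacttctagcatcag
Gm28437: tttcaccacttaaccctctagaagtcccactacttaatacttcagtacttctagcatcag
mt-Co1: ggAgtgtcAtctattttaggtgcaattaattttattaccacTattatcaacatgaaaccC
Gm13340: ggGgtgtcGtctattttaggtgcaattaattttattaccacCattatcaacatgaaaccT

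The mt-Co3 window and its copy are the same in all 60 bases, and over 783 aligned bases mt-Co3 and Gm28437 have 0 mismatches. The mt-Co1 window differs from its copy at 4 bases, and over all 1545 bases mt-Co1 and Gm13340 differ at 37. A read from the first window fits both places equally well, while most reads from the mt-Co1 window can be told apart. That mt-Co1 window differs more from its copy than the gene as a whole. Over all of mt-Co1, 51.1% of 50-base and 30.8% of 100-base words also occur in nuclear transcripts. Some members also overlap each other on 1 transcript. The end of mt-Atp8 (chrM:7907-7969) shares 43 bases with the start of mt-Atp6, and the end of mt-Nd4l (chrM:10147-10173) shares 7 bases with the start of mt-Nd4. Both lie on the plus strand, and capitals mark the shared bases.
mt-Atp8 end: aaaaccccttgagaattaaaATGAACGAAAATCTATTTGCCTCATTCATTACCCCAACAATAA
mt-Nd4l end: caaaatctcaacctactacaATGCTAA

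Members with near-complete nuclear copies held almost no counts. In any one library mt-Co2, mt-Co3, mt-Atp6, mt-Nd3 and mt-Nd4l held between 0 and 216 counts each, although the mRNAs of mt-Co2, mt-Co3 and mt-Atp6 are usually among the abundant mitochondrial transcripts of a cell. Their levels are therefore uncertain, and the values given for them do not measure the full transcript. The copies differed between the sets of libraries. Gm28437, the copy of mt-Co3, held 1362 to 4159 counts in H2BdIEC crypts and 563 to 3050 in control crypts, but 1 to 5 in tumors, 4 to 12 in adjacent tissue, 0 to 6 in tissue controls and 1 to 3 in organoids. With the counts of these nuclear genes added, the protein-coding share of crypt counts would be 2.02, 3.58, 2.36 and 2.62% in H2BdIEC crypts and 1.21, 1.29, 1.39 and 1.9% in control crypts. These had to lie close to the shares given later, since only 1611 to 11721 counts a crypt library joined 290129 to 547375 protein-coding counts. Reads without a unique place count for no gene and are not among the added counts. The part of such reads in the shares was not tested. mt-Atp8 shares no 50-base word with an annotated nuclear transcript. Only annotated transcripts were searched, so an unannotated copy would have been missed, such as one on chr1 between the copies of mt-Atp6 and mt-Co2. mt-Atp8 held 6579 to 12800 counts in H2BdIEC crypts and 5525 to 8147 in control crypts, and 0 in each of the 9 organoid libraries. As a count, 0 allows up to 0.140 to 0.520 CPM in an organoid library, depending on its depth. The sets list different numbers of genes and the counting options are not given in the sources used here, so a difference in transcript and a difference in counting cannot be told apart for mt-Atp8 between organoids and crypts.

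Per length, the order of the members differed between crypts, tissue and organoids. In crypts the median level over 8 libraries was 43179 CPM per kilobase for mt-Rnr2, the rRNA of the large mitochondrial ribosomal subunit, and 10396 for mt-Rnr1, the rRNA of the small subunit. Next came mt-Co1, the catalytic subunit of complex IV, at 7729.9, then mt-Nd1, a complex I subunit, at 2314, mt-Cytb, the cytochrome b of complex III, at 2011, and mt-Atp8, a small subunit of ATP synthase, at 1709.9 CPM per kilobase. In this order the range of each of these 6 genes over the crypt libraries overlapped that of the next. In tissue and organoids mt-Co1, mt-Cytb and mt-Nd1 led, and their order differed between groups. The median levels in CPM per kilobase were 2262 for mt-Co1, 2805 for mt-Cytb and 2699.8 for mt-Nd1 in tumors, 7367 for mt-Co1, 5534 for mt-Cytb and 4561 for mt-Nd1 in adjacent tissue and 5392 for mt-Co1, 5139 for mt-Cytb and 3798 for mt-Nd1 in tissue controls. mt-Co1 was the lowest of the 3 in all 4 tumors and the highest in all 4 adjacent and all 4 control samples. In organoids the medians were 2411 for mt-Co1, 2552 for mt-Cytb and 3355 for mt-Nd1 in H2B/p53dIEC, 1551 for mt-Co1, 1628 for mt-Cytb and 2430.4 for mt-Nd1 in H2BdIEC and 2731 for mt-Co1, 2281 for mt-Cytb and 2958 for mt-Nd1 in controls. mt-Nd1 was the highest of the 3 in all 9 organoid libraries, and mt-Co1 was the lowest in the 3 H2B/p53dIEC and 3 H2BdIEC libraries, while mt-Cytb was the lowest in the 3 controls. The rRNAs stood lower in tissue and organoids than in crypts: mt-Rnr2 had a median of 723 CPM per kilobase in tissue and 394 in organoids. In every set mt-Nd6, the only protein-coding gene read from the opposite strand, stood below mt-Nd1, mt-Nd2, mt-Nd4, mt-Nd5, mt-Cytb and mt-Co1, at 58.8 CPM per kilobase in crypts, 74.5 in tissue and 84.9 in organoids. Of 50-base words, 51.1% of mt-Co1 and 62.2% of mt-Nd4 also occur in nuclear transcripts, against 0 of mt-Nd1 and mt-Cytb, which limits levels compared between these genes. Crypts, tissue and organoids are separate sets of libraries, and no level was tested across them.

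**Figure D1:**
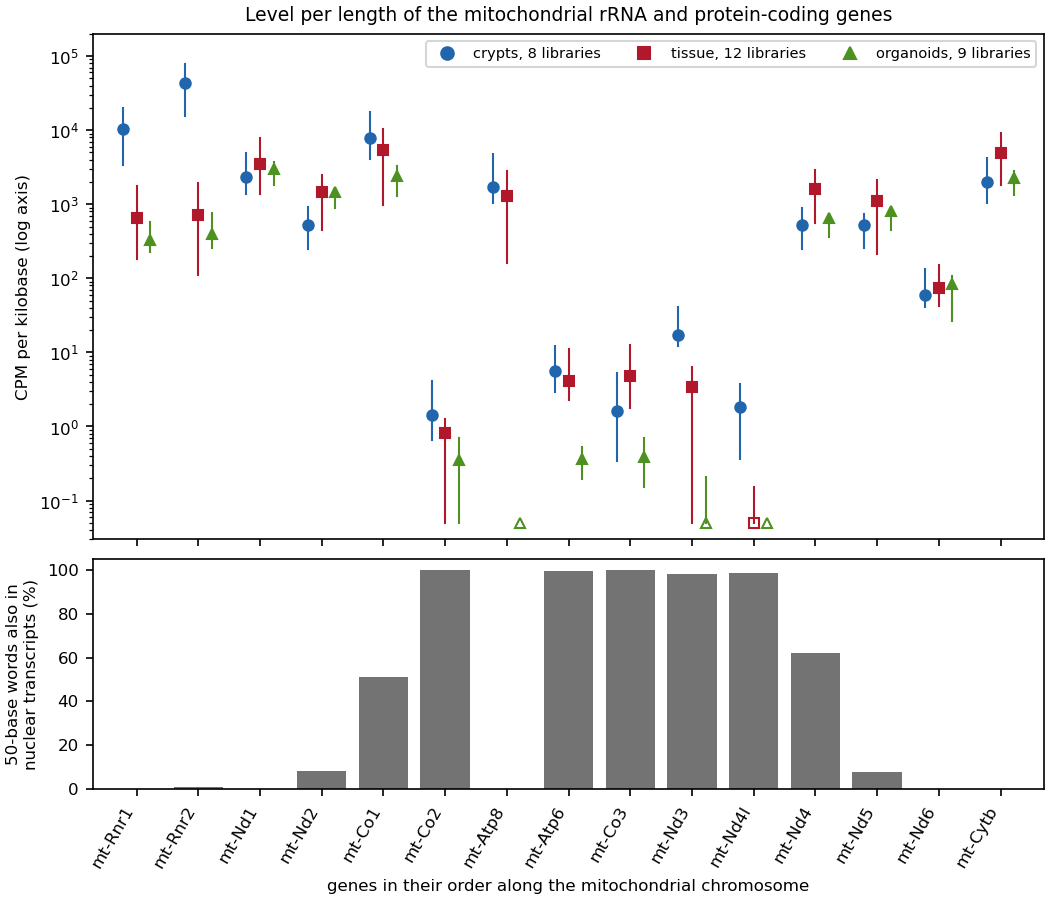
Upper panel: median level of the 2 mitochondrial rRNA and 13 protein-coding genes in CPM per kilobase on a log axis, with vertical lines from the lowest to the highest library of each set (open symbols at the bottom: median of 0). Lower panel: percent of 50-base words of each gene that also occur in nuclear transcripts. mt-Rnr2 stands at 43179 in crypts and 394 in organoids, and the genes with shares of 98.0% or more in the lower panel sit lowest in the upper one, apart from mt-Atp8, which is at 0 in organoids.

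Of the 22 tRNA genes, 3 (mt-Tf, mt-Ty and mt-Ts2) had no count in any of the 29 libraries. All tRNA genes together held 1 to 76 counts in a crypt library, 1 to 286 in a tissue library and 83 to 316 in an organoid library. Transfer RNAs are short, and their mature form is not one that an mRNA library is made to capture. The tRNA genes that passed the low-count filter numbered 1 in crypts, 4 in tissue and 8 in organoids. A few of them are printed because the tests below turn on them or because they lead their set: mt-Tl1, which carries leucine (chrM:2676-2750), mt-Tw, which carries tryptophan (chrM:4950-5016), and mt-Tm, which carries methionine (chrM:3845-3913), all on the plus strand. mt-Tw shares its first 2 bases with mt-Nd2, and the other two border the next gene directly.
mt-Tl1: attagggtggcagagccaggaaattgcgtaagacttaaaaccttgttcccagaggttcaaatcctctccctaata
mt-Tw: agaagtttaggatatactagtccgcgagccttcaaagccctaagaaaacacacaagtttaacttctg
mt-Tm: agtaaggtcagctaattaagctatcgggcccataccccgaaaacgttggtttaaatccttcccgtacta

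The share of all gene counts taken by the mitochondrial genes was set apart into protein-coding genes and rRNA. In H2BdIEC crypts the 13 protein-coding genes took 1.99, 3.52, 2.33 and 2.56% of counts, and in control crypts 1.17, 1.26, 1.38 and 1.88%. Every H2BdIEC crypt library lay above every control crypt library, with means of 2.60 ± 0.656% in H2BdIEC and 1.42 ± 0.314% in control crypts (SD, n = 4 each). The 2 rRNA genes took 7.30, 12.2, 8.66 and 9.01% of counts in H2BdIEC crypts and 3.16, 3.15, 3.71 and 8.51% in control crypts. The rRNA shares overlapped through control Crypt_981, which lay far above the other control crypts. rRNA counts exceeded protein-coding counts by a ratio of 3.46 to 3.71 in H2BdIEC crypts and 2.69, 2.50, 2.69 and 4.53 in control crypts.

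Tissue and organoids held far less rRNA than crypts. Other RNAs without a poly(A) tail moved with it between the sets: a list of histone mRNAs and noncoding RNAs such as Rn7sk and Rmrp summed to 11545 to 48005 CPM in crypts, 97.5 to 353 in tissue and 93.3 to 122 in organoids. The list of RNAs kept in the nucleus summed to 3949 to 9523 CPM in crypts, 367 to 1622 in tissue and 132 to 566 in organoids. The labels give 1 library protocol for all sets, and the part of these RNAs in the difference in rRNA was not tested. In tumors the protein-coding genes took 1.78, 0.836, 1.39 and 1.53% of counts, in adjacent tissue 3.07, 2.05, 3.50 and 2.51% and in tissue controls 2.71, 2.19, 2.07 and 2.23%. Each tumor lay below each adjacent and each control sample, while adjacent and control tissue overlapped. The rRNA took 0.0663, 0.0450, 0.0495 and 0.0719% in tumors, 0.261, 0.129, 0.175 and 0.108% in adjacent tissue and 0.211, 0.406, 0.269 and 0.243% in tissue controls, with tumors again below all the rest. In organoids the protein-coding share was 1.52, 1.43 and 1.41% in H2B/p53dIEC, 1.25, 0.748 and 0.938% in H2BdIEC and 1.31, 1.27 and 1.53% in controls. All 3 H2BdIEC organoid libraries lay below every library of both other genotypes, and H2B/p53dIEC overlapped the controls. The rRNA share was 0.0642, 0.0660 and 0.0668% in H2B/p53dIEC organoids, 0.173, 0.0775 and 0.0941% in H2BdIEC and 0.122, 0.132 and 0.129% in controls, so that here the H2B/p53dIEC organoids were lowest. The 95% binomial interval (Clopper-Pearson) of a protein-coding share reached at most 0.0442 percentage points to either side, in tissue control 1320, and covers counting error only. The shares describe these libraries and were not tested, since a share sums over members.

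**Figure D2:**
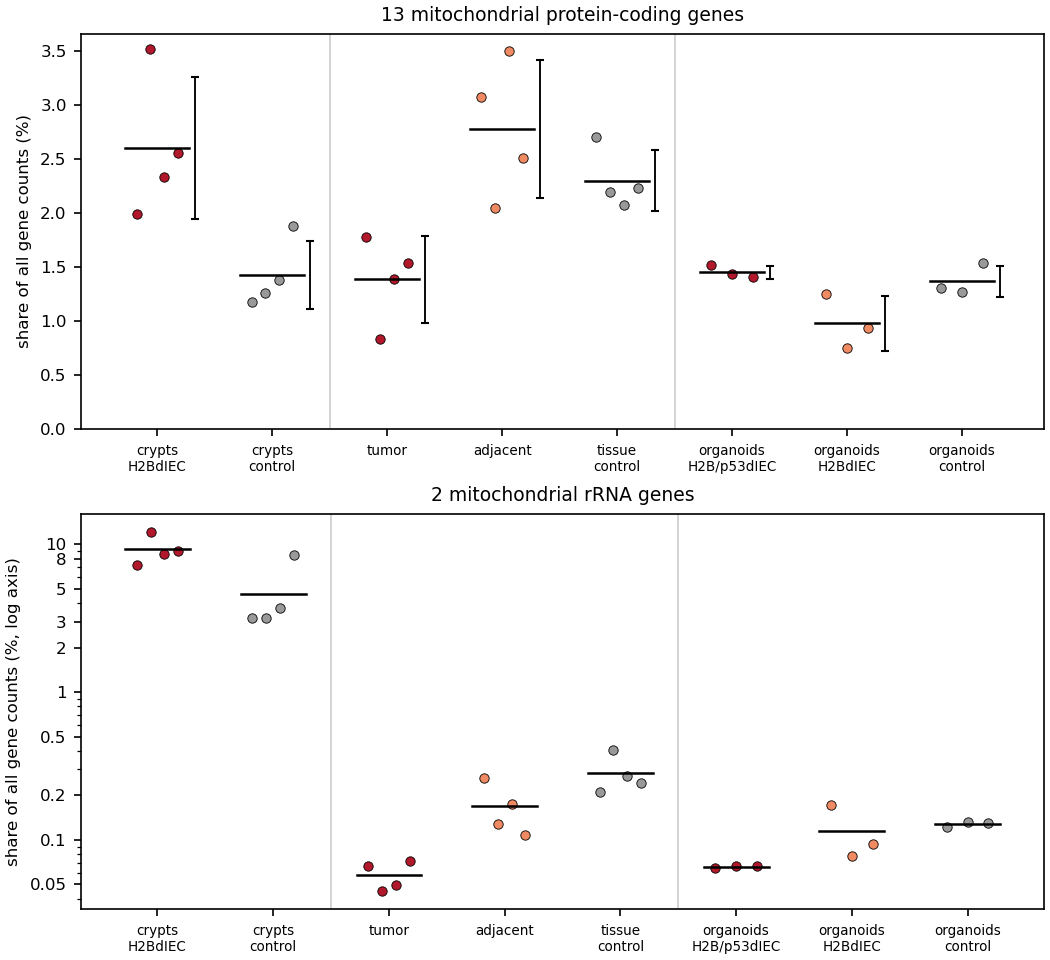
Share of all gene counts (%) taken by the 13 mitochondrial protein-coding genes (upper panel, linear axis) and by the 2 rRNA genes (lower panel, log axis) in each of the 29 libraries. Points are libraries, horizontal lines are group means and, in the upper panel, vertical bars are SDs. Protein-coding shares span 1.99 to 3.52% in H2BdIEC crypts against 1.17 to 1.88% in control crypts, and rRNA shares lie at 0.0450 to 0.0719% in tumors and reach 12.2% in an H2BdIEC crypt library.

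In crypts the comparison asked which members differed between aged H2BdIEC and floxed mice. Of the 13 mitochondrial protein-coding genes, 7 rose in H2BdIEC crypts and 0 fell: mt-Nd1, mt-Nd2, mt-Nd5 and mt-Nd6 of complex I, mt-Cytb of complex III, mt-Co1 of complex IV and mt-Atp8 of ATP synthase. Of all 14596 genes tested, 10.0% changed, 5.16% rose and 4.87% fell. The median log2 fold change was 1.0 over the 13 genes and -0.01 over all genes, and all 13 values were above 0, between 0.84 and 1.51. A call here is an adjusted p under 0.05 from edgeR's quasi-likelihood test with Benjamini-Hochberg adjustment over all genes, and values after ± are SDs for CPM and SEs for log2 fold changes.

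mt-Nd1, a core subunit of the complex I membrane arm, stood at 2255, 4699, 3057 and 3206 CPM in H2BdIEC crypts and at 1297, 1464, 1555 and 2174 CPM in control crypts. The groups did not overlap, and the log2 fold change was 1.03 ± 0.24 (adjusted p = 0.0256). mt-Nd6, read from the opposite strand, stood at 31.4, 68.4, 58.2 and 47.8 CPM in H2BdIEC crypts and 21.2, 26.1, 25.8 and 29.6 in control crypts. This gene too showed no overlap (1.0 ± 0.21, adjusted p = 0.0193). The other complex I genes that rose, mt-Nd2 and mt-Nd5, encode antiporter-like subunits that move protons, and both overlapped between groups through control Crypt_981. mt-Nd2 averaged 709 ± 173 CPM in H2BdIEC crypts and 366 ± 134 in control crypts (0.96 ± 0.25, adjusted p = 0.0387, n = 4 each), and mt-Nd5 averaged 1123 ± 176 CPM in H2BdIEC crypts and 626 ± 235 in control crypts (0.84 ± 0.23, adjusted p = 0.0446). mt-Nd4, another proton-moving subunit, missed the threshold with 897 ± 238 CPM in H2BdIEC and 457 ± 193 CPM in control crypts (0.97 ± 0.28, adjusted p = 0.0526).

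mt-Cytb, which passes electrons from ubiquinol within complex III, stood at 2197.9, 4872, 2994 and 3237 CPM in H2BdIEC crypts and 1201, 1287, 1457 and 2404 in control crypts. Only control Crypt_981 reached into the H2BdIEC range (1.07 ± 0.28, adjusted p = 0.0380). mt-Co1, which holds the site where complex IV reduces oxygen, stood at 12012, 26839.5, 17235 and 18516 CPM in H2BdIEC crypts and 6372, 7639, 7517 and 11873 in control crypts. It was the highest of the 13 in CPM in all 8 libraries, and its groups did not overlap, with control Crypt_981 just below H2BdIEC Crypt_975 (1.16 ± 0.28, adjusted p = 0.0298). mt-Atp8 stood at 356, 959, 555 and 629 CPM in H2BdIEC crypts and 211, 222, 209 and 341 in control crypts. Its log2 fold change was 1.35 ± 0.28 (adjusted p = 0.0198), the largest among the 7 called genes, with no overlap. The 5 genes with near-complete nuclear copies all gave positive values and none passed the test, with adjusted p from 0.0571 for mt-Nd3 to 0.204 for mt-Nd4l.

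The 2 rRNAs did not pass the test across all 8 crypt libraries. mt-Rnr1 stood at 9113, 19024, 13289 and 13339 CPM in H2BdIEC crypts and 3183, 3332, 3817 and 10744 in control crypts (1.38 ± 0.41, adjusted p = 0.0608). mt-Rnr2 stood at 60769, 122792, 84423 and 86929 CPM in H2BdIEC crypts and 24173, 26068, 28667 and 75849 in control crypts (1.2 ± 0.40, adjusted p = 0.0822). Control Crypt_981 lay within the H2BdIEC range for both rRNAs, and the other 3 controls lay below it. Without control Crypt_981 the values were 2.0 (adjusted p = 0.00458) for mt-Rnr1 and 1.76 (adjusted p = 0.0130) for mt-Rnr2. Among tRNA genes mt-Tm alone was tested, with 11, 70, 28 and 63 counts in H2BdIEC crypts and 26, 67, 3 and 1 in control crypts, and it did not pass (1.66 ± 1.0, adjusted p = 0.315). The count of 7 protein-coding genes that rose depended on single libraries: it was 2, 3 and 1 without H2BdIEC libraries Crypt_976, Crypt_978 or Crypt_979, and 0, 4, 0 and 10 without control libraries Crypt_970, Crypt_971, Crypt_972 or Crypt_981.

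Other measures moved with the genotype in crypts, where 5.16% of all genes rose and 4.87% fell by edgeR's test. Of 8 Paneth cell markers 7 fell and summed to 2065 to 3308.8 CPM in H2BdIEC crypts and 4595 to 12301 in control crypts, and of 4 stem cell markers 3 fell (Olfm4, Lgr5 and Smoc2). Of 8 enterocyte markers 2 rose by edgeR's test (Alpi and Fabp1), 6 had an unadjusted p under 0.05 and DESeq2 called 7 higher. The sums of the 8 enterocyte markers were 29479.5 to 40504 CPM in H2BdIEC and 19028 to 28297 in control crypts, without overlap. The 5 RNAs of the list of RNAs kept in the nucleus, with Malat1 and Neat1, summed to 6524 to 9523 CPM in H2BdIEC and 3949 to 5645 in control crypts, also without overlap. Of the 4 tested, 0 passed edgeR's test, 3 had an unadjusted p under 0.05 and DESeq2 called 3 higher. The RNAs without a poly(A) tail summed to 18222, 39066, 48005 and 26483 CPM in H2BdIEC crypts and 18009.8, 14882 and 20246 CPM in control libraries Crypt_970, Crypt_971 and Crypt_972, with 11545 in Crypt_981, and overlapped through H2BdIEC Crypt_975. Control Crypt_981, with the highest rRNA share of the controls, had the lowest of these sums. By edgeR 1 of 60 such RNAs rose and 9 fell, with 45 at an unadjusted p under 0.05. DESeq2 gave 3 higher calls and 23 lower ones. Goblet cell markers summed to 7624 to 11841 CPM in H2BdIEC and 11656 to 20008 in control crypts. By edgeR's test 1 of 7, Muc2, fell, while 5 had an unadjusted p under 0.05 and DESeq2 called 2 lower. All 7 tested acinar pancreas markers had an unadjusted p under 0.05 by edgeR, and DESeq2 called 1 higher and 1 lower. The part of these measures, and of the lower depth of the H2BdIEC crypts, in the mitochondrial values was not tested.

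**Figure D3:**
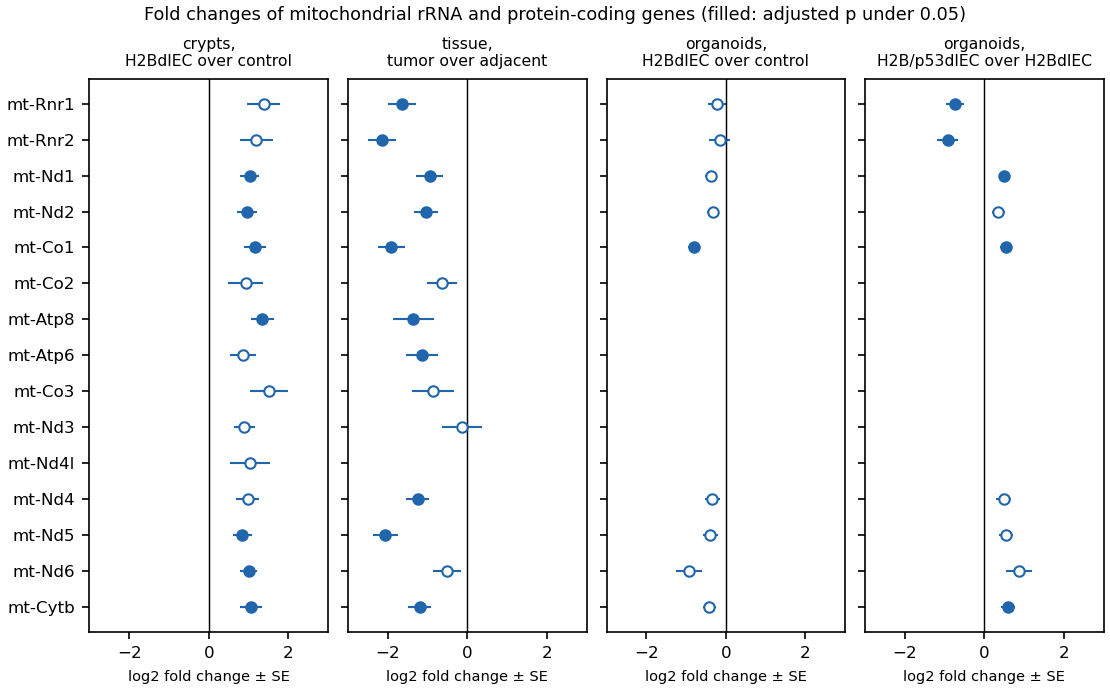
Log2 fold changes (± SE) of the 2 mitochondrial rRNA and 13 protein-coding genes in 4 comparisons, each named above its panel with the group over its reference. Filled points passed an adjusted p under 0.05, and genes without a point did not pass the low-count filter. The crypt panel holds 7 filled protein-coding points above 0, the tumor panel 8 below 0, and the organoid panels 1 below 0 and 3 above 0.

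In tumors, set against adjacent non-tumor tissue of the same mice, 8 of 12 tested mitochondrial protein-coding genes fell and 0 rose. They were mt-Nd1, mt-Nd2, mt-Nd4 and mt-Nd5 of complex I, mt-Cytb, mt-Co1, and mt-Atp8 and mt-Atp6 of ATP synthase. Changes were common in this comparison, where 46.9% of 17666 genes changed and 24.0% fell. The median log2 fold change of the 12 genes was -1.09, against -0.00 over all genes. mt-Nd4l did not pass the low-count filter.

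mt-Nd5, the proton-moving subunit at the far end of complex I, stood at 869, 386, 831 and 714 CPM in tumors, 2925, 1913, 3933 and 2901 in adjacent tissue and 2957, 2098, 1669.9 and 2659.5 in tissue controls. Tumors lay below all other tissue, with a log2 fold change over adjacent tissue of -2.06 ± 0.32 (adjusted p = 0.000303), the largest fall among the protein-coding genes. mt-Co1 stood at 4102, 1519, 3529 and 3459 CPM in tumors, 12681, 8463, 16146 and 10085 in adjacent tissue and 9531, 8568, 7581 and 8094 in tissue controls. Again no tumor reached another tissue sample (-1.91 ± 0.34, adjusted p = 0.000745). mt-Cytb averaged 3105 ± 808 CPM in tumors and 7118 ± 2398 in adjacent tissue (SD, n = 4 each, -1.2 ± 0.29, adjusted p = 0.00546), without overlap. Other complex I genes had log2 fold changes nearer to 0. mt-Nd4 averaged 1143 ± 359 CPM in tumors and 2711 ± 959.8 in adjacent tissue (-1.25 ± 0.29, adjusted p = 0.00438), and mt-Nd2 averaged 799 ± 234 CPM in tumors and 1651 ± 661 in adjacent tissue (-1.05 ± 0.30, adjusted p = 0.0132), both without overlap.

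Weaker calls had overlapping groups. mt-Nd1 stood at 2821, 1331, 2346 and 3327 CPM in tumors and 4397, 2776, 7408 and 4334 in adjacent tissue (-0.94 ± 0.34, adjusted p = 0.0364), with tumors 1319 and 1349 reaching into the adjacent range. mt-Atp8 (-1.35 ± 0.51, adjusted p = 0.0445) and mt-Atp6, the proton channel of ATP synthase (-1.14 ± 0.40, adjusted p = 0.0339), also overlapped, and mt-Atp6 rests on 50 to 93 counts a library in tumors and 66 to 143 in adjacent tissue. With mouse as a replicate block in a fit of tumor and adjacent tissue alone, 6 protein-coding genes fell, and mt-Nd1 (adjusted p = 0.0818) and mt-Atp6 (adjusted p = 0.114) missed the threshold. The count of 8 was 5 without tumor 1322, tumor 1323 or adjacent 1323 and 5 in a fit without the tissue controls and without the block. mt-Nd6 stood at 23.1, 39.0, 21.9 and 38.3 CPM in tumors and 25.9, 28.2, 76.0 and 45.5 in adjacent tissue and did not pass the test (-0.52 ± 0.35, adjusted p = 0.240).

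Both rRNAs fell in tumors. mt-Rnr2 stood at 299, 174, 238 and 365 CPM in tumors, 1607, 824, 1544 and 782 in adjacent tissue and 1463, 3015, 2162 and 1678 in tissue controls. Its log2 fold change was -2.14 ± 0.34 (adjusted p = 0.000382) over adjacent tissue and -2.95 ± 0.35 (adjusted p = 3.70e-05) over tissue controls, with no overlap in either. mt-Rnr1 stood at 241, 182, 172 and 269 CPM in tumors, 1080.2, 525, 718 and 386 in adjacent tissue and 777, 1671, 725 and 959 in tissue controls (-1.65 ± 0.35, adjusted p = 0.00226 over adjacent tissue). Of the 4 tRNA genes tested, mt-Tl1 and mt-Tw fell in tumors. mt-Tl1 had 16, 4, 30 and 21 counts in tumors and 20, 46, 110 and 46 in adjacent tissue (-2.19 ± 0.72, adjusted p = 0.0248), and mt-Tw had 4, 1, 12 and 4 counts in tumors and 5, 16, 52 and 18 in adjacent tissue (-2.66 ± 0.83, adjusted p = 0.0195). Without adjacent 1323 neither passed, with -1.41 (adjusted p = 0.102) for mt-Tl1 and -1.63 (adjusted p = 0.0878) for mt-Tw, and mt-Tl1 also missed the threshold without tumor 1319 or 1322 (adjusted p = 0.0542 or 0.0560).

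Against tissue controls, 7 of the 12 tested protein-coding genes fell in tumors and 0 rose: mt-Nd2, mt-Nd4, mt-Nd5 and mt-Nd6 of complex I, mt-Cytb, mt-Co1 and mt-Atp8. In that comparison 54.6% of genes changed and 26.1% fell, and it shares the tumors with the comparison above. The log2 fold changes were -1.75 ± 0.32 for mt-Nd5 (adjusted p = 0.000571), -1.42 ± 0.33 for mt-Co1 (adjusted p = 0.00320) and -0.97 ± 0.29 for mt-Cytb (adjusted p = 0.0137). mt-Nd1 did not pass here (-0.57 ± 0.34, adjusted p = 0.166). The tRNA genes mt-Tl1 (-2.14 ± 0.74, adjusted p = 0.0274) and mt-Ti, which carries isoleucine (-2.13 ± 0.61, adjusted p = 0.0103), fell. Without tissue control 1316 mt-Tl1 had -1.25 (adjusted p = 0.189), and without tumor 1319 or 1322 its adjusted p was 0.0570 or 0.0590. Without 1 library at a time, 5 to 7 protein-coding genes fell.

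Adjacent tissue of H2B/p53dIEC mice was set against tissue controls to ask whether non-tumor tissue differed by genotype. Of the 12 tested protein-coding genes 0 passed edgeR's test and 0 had an unadjusted p under 0.05, where 1.07% of all genes changed (0.792% higher and 0.277% lower), and DESeq2 called 0 of them as well. mt-Co1 averaged 11844 ± 3353 CPM in adjacent tissue and 8444 ± 829 in tissue controls (0.49 ± 0.33, adjusted p = 0.474), and mt-Nd1 averaged 4729 ± 1937 CPM in adjacent tissue and 3654 ± 512 in tissue controls (0.37 ± 0.34, adjusted p = 0.606). Both rRNAs had negative values and did not pass: -0.61 ± 0.34 for mt-Rnr1 (adjusted p = 0.379) and -0.81 ± 0.33 for mt-Rnr2 (adjusted p = 0.235). Tissue control 1320, with 401365 counts, limits this comparison.

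Tumors and adjacent tissue also differed in cell type markers, in a comparison where 23.0% of all genes rose and 24.0% fell. All 8 smooth muscle markers fell in tumors, with sums of 286 to 828 CPM in tumors and 2948 to 4383 in adjacent tissue. Of 7 fibroblast markers 4 rose, with sums of 1347 to 10844 CPM in tumors and 336 to 1065 in adjacent tissue, and of 10 epithelial markers 8 fell and 1 rose, with sums of 6401 to 10615 CPM in tumors and 14151 to 22432 in adjacent tissue. Of 8 enterocyte markers 5 fell, with sums of 558 to 17798 CPM in tumors and 20045 to 110914 in adjacent tissue. Of 4 stem cell markers 3 rose, with sums of 715 to 824 CPM in tumors and 66.8 to 130.2 in adjacent tissue, and of 7 goblet cell markers 5 fell and 1 rose. The part of these markers in the lower mitochondrial levels of tumors was not tested.

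In organoids, H2BdIEC lines were set against controls to ask for an effect of Rnaseh2b loss in cultured epithelium. The 7 protein-coding genes that passed the low-count filter all had negative values, and mt-Co1 alone passed the test. In that comparison 4.06% of 15701 genes changed, 1.97% fell and 2.08% rose. mt-Co1 stood at 3325, 1985 and 2397 CPM in H2BdIEC organoids and 4119, 4220.0 and 5031 in organoid controls. The groups did not overlap (-0.80 ± 0.15, adjusted p = 0.0113). mt-Nd6 stood at 13.8, 18.2 and 41.9 CPM in H2BdIEC organoids and 47.3, 44.1 and 56.0 in organoid controls, also without overlap, and did not pass (-0.92 ± 0.33, adjusted p = 0.167). H2BdIEC library A, the shallowest, had the lowest mt-Nd6 value and the highest values of the other 6 genes among the H2BdIEC libraries. The 5 remaining genes had log2 fold changes from -0.42 to -0.32 with overlapping groups. Without H2BdIEC A, 5 protein-coding genes fell, without H2BdIEC C 2 fell, and with no low-count filter 7 fell. In a fit of these 2 groups alone 0 fell, and mt-Co1 had an adjusted p of 0.0541.

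H2B/p53dIEC organoids were set against H2BdIEC organoids, from which they differ by label in p53. Trp53 averaged 11.1 CPM in H2B/p53dIEC and 95.7 in H2BdIEC organoids. Rnaseh2b differed too, at 1.08 to 2.15 CPM in H2B/p53dIEC and 4.97 to 7.05 in H2BdIEC organoids. An effect of p53 loss thus cannot be told apart from one of the Rnaseh2b level or of what the title prefix stands for. Here 3 of the 7 tested protein-coding genes rose, mt-Nd1, mt-Co1 and mt-Cytb, and both rRNAs fell. Of all genes tested, 29.3% changed and 13.9% rose. mt-Nd1 stood at 3511, 3211 and 3111 CPM in H2B/p53dIEC and 2874, 1743 and 2326 in H2BdIEC organoids (0.50 ± 0.14, adjusted p = 0.0208). mt-Cytb stood at 3206, 2891 and 2920.1 CPM in H2B/p53dIEC and 2596, 1517 and 1863 in H2BdIEC organoids (0.59 ± 0.17, adjusted p = 0.0193). Neither gene overlapped between the groups, nor did mt-Co1, with 3783, 3725 and 3663 CPM in H2B/p53dIEC organoids and 3325, 1985 and 2397 in H2BdIEC organoids (0.54 ± 0.15, adjusted p = 0.0183). mt-Nd5 (0.54 ± 0.19, adjusted p = 0.0510) and mt-Nd6 (0.87 ± 0.33, adjusted p = 0.0776) also had no overlap but did not pass. The H2B/p53dIEC libraries varied little among themselves, whereas H2BdIEC A stood above B and C. The count of 3 was 0 and 1 without H2B/p53dIEC 1 or 2, and 6, 0 and 1 without H2BdIEC A, B or C. mt-Nd1 had 0.33 (adjusted p = 0.0588) without H2BdIEC B.

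Cell type markers differed between these organoids too. Of all genes, 13.9% rose and 15.4% fell in H2B/p53dIEC over H2BdIEC, and 2.08% rose in H2BdIEC over control organoids. Stem cell markers summed to 1972 to 2035 CPM in H2B/p53dIEC, 1211 to 1292 in H2BdIEC and 1204 to 1431 in control organoids, and 3 of 4 rose in H2B/p53dIEC over H2BdIEC. Enteroendocrine markers summed to 834 to 886 CPM in H2B/p53dIEC, 1202 to 1262 in H2BdIEC and 899 to 963 in control organoids. Of 7 enteroendocrine markers 3 fell in H2B/p53dIEC over H2BdIEC and 3 rose in H2BdIEC over control organoids. The H2BdIEC organoids overlapped neither other group in the enteroendocrine sum, and the H2B/p53dIEC organoids overlapped neither in the stem cell sum. The part of these markers in the mitochondrial values was not tested.

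The rRNAs went the other way. mt-Rnr1 stood at 219, 228 and 224 CPM in H2B/p53dIEC, 554, 257 and 315 in H2BdIEC and 403, 462 and 438 in control organoids. mt-Rnr2 stood at 407, 413 and 428 CPM in H2B/p53dIEC, 1217, 519 and 623 in H2BdIEC and 827, 893 and 892 in control organoids. All H2B/p53dIEC libraries lay below all other organoids for both. Over H2BdIEC the log2 fold changes were -0.74 ± 0.23 (adjusted p = 0.0339) for mt-Rnr1 and -0.91 ± 0.26 (adjusted p = 0.0298) for mt-Rnr2. Without H2BdIEC A, the highest library, these were -0.36 (adjusted p = 0.00130) for mt-Rnr1 and -0.46 (adjusted p = 2.85e-05) for mt-Rnr2. Without H2B/p53dIEC 1, 2 or 3 neither rRNA passed, with adjusted p from 0.0622 to 0.0861, nor did mt-Rnr1 without H2BdIEC C (adjusted p = 0.0576) or in a fit of these 2 groups alone (adjusted p = 0.0506). Over controls, in a comparison where 33.3% of genes changed, they were -0.96 ± 0.22 (adjusted p = 0.00911) for mt-Rnr1 and -1.07 ± 0.26 (adjusted p = 0.0134) for mt-Rnr2. Of the 7 tested protein-coding genes 0 passed edgeR's test between H2B/p53dIEC and control organoids and 0 had an unadjusted p under 0.05, and DESeq2 called 0. mt-Co1 had -0.26 ± 0.15 (adjusted p = 0.204), with every H2B/p53dIEC library below every control, and mt-Nd1 0.12 ± 0.14 (adjusted p = 0.540) there.

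Of 8 tRNA genes tested in organoids, 3 fell in H2B/p53dIEC against control organoids, where 16.6% of all genes fell, and DESeq2 called 1 of the 8 lower. mt-Tw had 28, 20 and 21 counts in H2B/p53dIEC, 46, 34 and 33 in H2BdIEC and 77, 112 and 43 in control organoids (-1.5 ± 0.45, adjusted p = 0.0224 over controls). mt-Ti had 3, 4 and 6 counts in H2B/p53dIEC and 11, 19 and 19 in control organoids (-1.65 ± 0.58, adjusted p = 0.0425), and mt-Tt, which carries threonine, had 8, 14 and 13 counts in H2B/p53dIEC and 34, 36 and 18 in control organoids (-1.09 ± 0.33, adjusted p = 0.0247). The groups did not overlap in CPM for these 3 genes, but the calls rested on single libraries. mt-Ti lost its call without any 1 of H2B/p53dIEC 1, 2 and 3 and control B and C (adjusted p up to 0.149), mt-Tw without any 1 of H2B/p53dIEC 1, 2 and 3 and control A and B (up to 0.0868), and mt-Tt without any 1 of H2B/p53dIEC 1 and 2 and control A and B (up to 0.113). In H2BdIEC over control organoids the smallest adjusted p among the 8 was 0.149, for mt-Tq, which carries glutamine. In H2B/p53dIEC over H2BdIEC organoids it was 0.0722, for mt-Tw.

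The difference between the effects of H2BdIEC in crypts and in organoids was tested in a joint fit of 14 libraries, as the log2 fold change in crypts minus that in organoids. Of the 13 protein-coding genes 4 had a more positive effect in crypts, where 4.02% of 17163 genes passed (2.30% more positive and 1.72% less positive in crypts): mt-Co1 (1.98 ± 0.38, adjusted p = 0.00850), mt-Nd1 (1.43 ± 0.33, adjusted p = 0.0237), mt-Nd6 (1.97 ± 0.47, adjusted p = 0.0368) and mt-Cytb (1.51 ± 0.39, adjusted p = 0.0389). mt-Co1 was higher in all 4 H2BdIEC crypt libraries, and lower in all 3 H2BdIEC organoid libraries than in every control of the same set. No estimate could be had for mt-Atp8, mt-Nd3 and mt-Nd4l, whose organoid counts were at or near 0. The rRNAs did not pass (1.62 ± 0.57, adjusted p = 0.125 for mt-Rnr1 and 1.37 ± 0.55, adjusted p = 0.168 for mt-Rnr2). The count of 4 was 2 without the H2BdIEC libraries Crypt_976 or Crypt_979, the control libraries Crypt_970 or Crypt_972, or control organoid A, and 1 without H2BdIEC organoid B or control organoid B or C. Crypts and organoids differ in culture and in library set, so the source of the difference cannot be told apart.

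Ratios of counts within the mitochondrial chromosome do not depend on the scaling of a library. Those with mt-Co1 do depend on how reads shared with nuclear copies were counted. The ratio of mt-Co1 to mt-Nd1 counts was 5.33, 5.71, 5.64 and 5.78 in H2BdIEC crypts and 4.91, 5.22, 4.84 and 5.46 in control crypts, with overlap. In tumors it was 1.45, 1.14, 1.5 and 1.04, in adjacent tissue 2.88, 3.05, 2.18 and 2.33 and in tissue controls 2.41, 2.03, 2.42 and 2.44, so that each tumor lay below all non-tumor tissue. In organoids it was 1.08, 1.16 and 1.18 in H2B/p53dIEC, 1.16, 1.14 and 1.03 in H2BdIEC and 1.46, 1.5 and 1.5 in controls. Both genotypes with deletion of Rnaseh2b lay below the organoid controls and overlapped each other. Complex IV genes, nearly all mt-Co1, made up 25.5% to 26.8% of protein-coding mitochondrial counts in H2B/p53dIEC organoids, 25.6% to 26.5% in H2BdIEC organoids and 31.3% to 32.4% in organoid controls. In tumors they made up 23.0% to 30.7%, in adjacent tissue 35.7% to 40.1% and in tissue controls 33.2% to 34.1%, against 63.0% to 65.5% in H2BdIEC crypts and 62.1% to 64.9% in control crypts. Complex I genes made up 42.6% to 47.4% in tumors, 35.2% to 40.6% in adjacent tissue and 39.8% to 41.7% in tissue controls. These are parts of 1 total, so a smaller mt-Co1 part by itself raises the others. In CPM the complex I genes were lower in tumors too, with sums of 3002 to 6406 in tumors, 7542 to 18008 in adjacent tissue and 8842 to 11749 in tissue controls. Counts of mt-Co2 and mt-Co3 do not measure their full transcripts, so the complex IV part does not describe the whole complex.

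The ratio of mt-Nd5 to mt-Nd1 counts, 2 complex I genes that lie far apart on the plus strand, was 0.308, 0.290, 0.354 and 0.215 in tumors, 0.665, 0.689, 0.531 and 0.669 in adjacent tissue and 0.749, 0.498, 0.533 and 0.801 in tissue controls. Tumors were again set apart from all non-tumor tissue, which was not so in crypts, with 0.288 to 0.424 in H2BdIEC and 0.334 to 0.446 in control crypts. The ratio of mt-Rnr2 to mt-Rnr1 counts was 6.67, 6.45, 6.35 and 6.52 in H2BdIEC crypts and 7.59, 7.82, 7.51 and 7.06 in control crypts, without overlap. It was 0.957 to 1.39 in tumors, 1.49 to 2.15 in adjacent tissue, 1.75 to 2.98 in tissue controls and 1.81 to 2.2 in organoids. rRNA over protein-coding counts stood at 0.0422, 0.0461 and 0.0475 in H2B/p53dIEC organoids, 0.138, 0.104 and 0.100 in H2BdIEC organoids and 0.0934, 0.104 and 0.0841 in organoid controls, with H2B/p53dIEC below all others. The 2 rRNA genes lie next to each other at the start of the plus strand, with mt-Tv alone between them. These ratios were not tested.

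**Figure D4:**
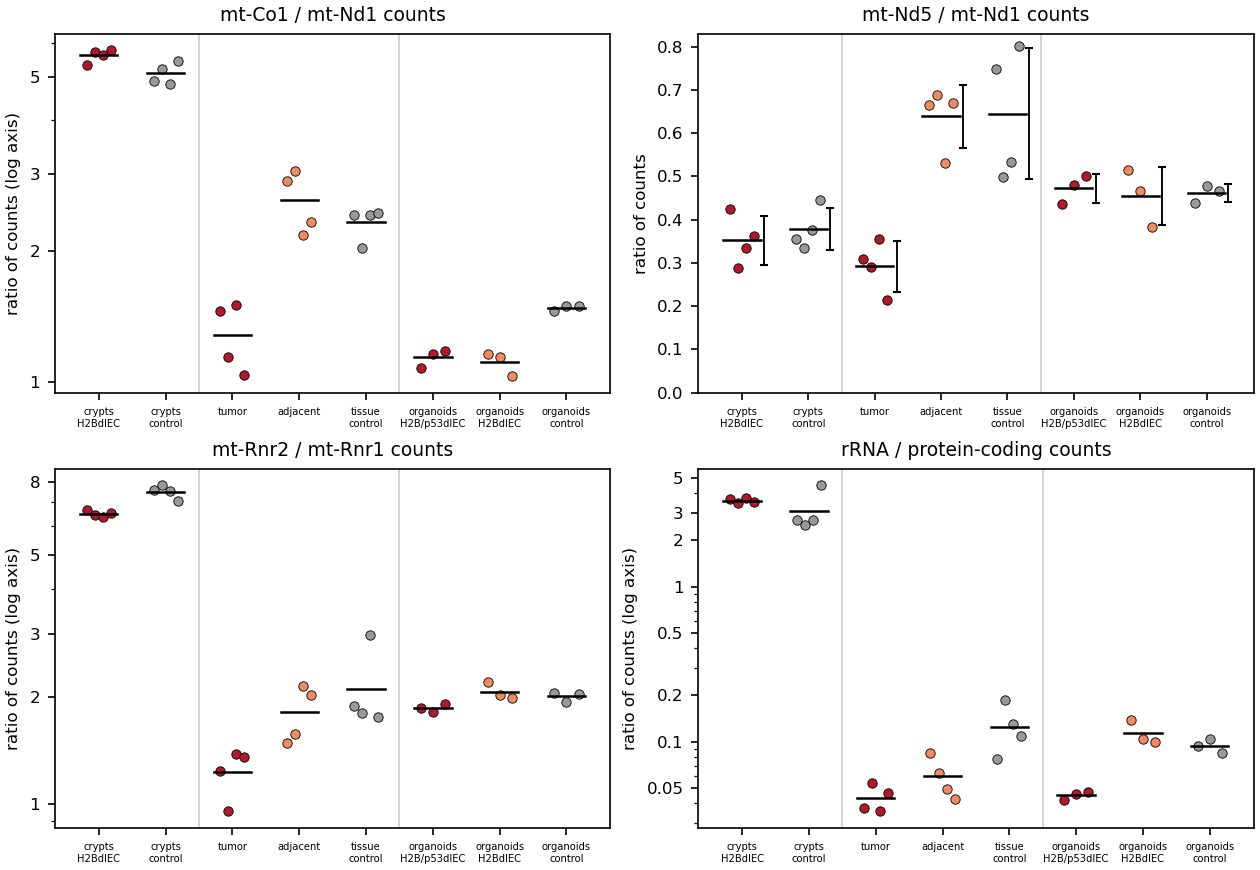
Ratios of counts between mitochondrial genes in each library: mt-Co1 over mt-Nd1, mt-Nd5 over mt-Nd1, mt-Rnr2 over mt-Rnr1 and rRNA over protein-coding genes (log axes where labelled). Points are libraries and horizontal lines group means, with SD bars on the linear axis. Tumors lie at 1.04 to 1.5 in the first panel, below adjacent tissue at 2.18 to 3.05, and the rRNA ratio of control library Crypt_981 stands at 4.53.

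Nuclear genes that serve the same complexes were counted beside the mitochondrial ones. In H2BdIEC crypts, where 7 of 13 mitochondrial genes rose, 0 of 80 tested nuclear-encoded respiratory chain genes rose and 0 fell by edgeR's test. Among those 80, 2 had an unadjusted p under 0.05, DESeq2 called 0, and the median log2 fold change was 0.11. Of all genes tested in crypts 5.16% rose and 4.87% fell, and the few calls in the lists that follow are not read as a result about a list. Of 77 mitochondrial ribosomal protein genes 2 fell, Mrps9 (-0.46 ± 0.11, adjusted p = 0.0253) and Mrpl9 (-0.39 ± 0.10, adjusted p = 0.0320). Of 28 genes for mitochondrial RNA processing and stability 2 fell: Lrpprc, which stabilises mitochondrial mRNAs (-0.43 ± 0.10, adjusted p = 0.0210), and Fastkd1 (-0.46 ± 0.11, adjusted p = 0.0272). Of 10 transcription genes Mterf2 rose (0.66 ± 0.15, adjusted p = 0.0239), and Tfam, which packages and starts transcription of mitochondrial DNA, had -0.35 ± 0.13, adjusted p = 0.100. Of 17 genes for replication and upkeep of mitochondrial DNA Mgme1, a nuclease, fell (-0.47 ± 0.13, adjusted p = 0.0437).

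In tumors over adjacent tissue, where 8 of 12 mitochondrial protein-coding genes fell, 12 of 81 nuclear-encoded respiratory chain genes fell and 4 rose (median -0.04). Sdha, the succinate dehydrogenase flavoprotein (-1.18 ± 0.21, adjusted p = 0.000783), and Uqcrfs1, the iron-sulfur protein of complex III (-1.08 ± 0.25, adjusted p = 0.00400), were among those that fell. Of 77 mitochondrial ribosomal protein genes 35 rose and 2 fell (median 0.44). Mrpl13 (1.23 ± 0.20, adjusted p = 0.000412) and Mrpl52 (1.08 ± 0.17, adjusted p = 0.000384) were among those that rose. Of 17 genes for mitochondrial DNA 5 rose and 1 fell, with Top1mt, the mitochondrial topoisomerase (1.88 ± 0.23, adjusted p = 6.24e-05), and Twnk, the replicative helicase (0.98 ± 0.26, adjusted p = 0.00768), among those that rose. Of 9 regulators of mitochondrial biogenesis 5 fell and 1 rose: Esrra, a nuclear receptor that drives respiratory genes, fell (-1.74 ± 0.29, adjusted p = 0.000517) and Pprc1 rose (1.22 ± 0.21, adjusted p = 0.000690). All genes tested had a median of -0.00 with 23.0% higher and 24.0% lower. The share of respiratory chain genes that fell was below that of all genes, and the share of genes for mitochondrial DNA that rose was near it. The calls in these 2 lists are not read as a result about a list.

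In H2B/p53dIEC over H2BdIEC organoids, 24 of 81 nuclear-encoded respiratory chain genes fell and 1 rose (median -0.13), while 3 mitochondrial protein-coding genes rose. Among those that fell were Ndufb10 of complex I (-0.43 ± 0.06, adjusted p = 0.000413), Uqcrh of complex III (-0.47 ± 0.08, adjusted p = 0.000783) and Atp5c1 of ATP synthase (-0.38 ± 0.08, adjusted p = 0.00315). All genes tested had a median of 0.00, with 15.4% lower. Ppargc1a, a coactivator that drives mitochondrial biogenesis, fell (-1.88 ± 0.28, adjusted p = 0.000814), and Pprc1, a relative of it, rose (0.46 ± 0.10, adjusted p = 0.00374). Against controls, 33 respiratory chain genes fell and 1 rose, where 16.6% of all genes fell and 16.7% rose, and both comparisons share the H2B/p53dIEC libraries. In H2BdIEC over control organoids, where 1.97% of all genes fell, 3 of 81 fell, namely Cox6a2 (-1.60 ± 0.30, adjusted p = 0.0101), Ndufa6 (-0.41 ± 0.10, adjusted p = 0.0348) and Uqcrb (-0.36 ± 0.09, adjusted p = 0.0409).

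**Figure D5:**
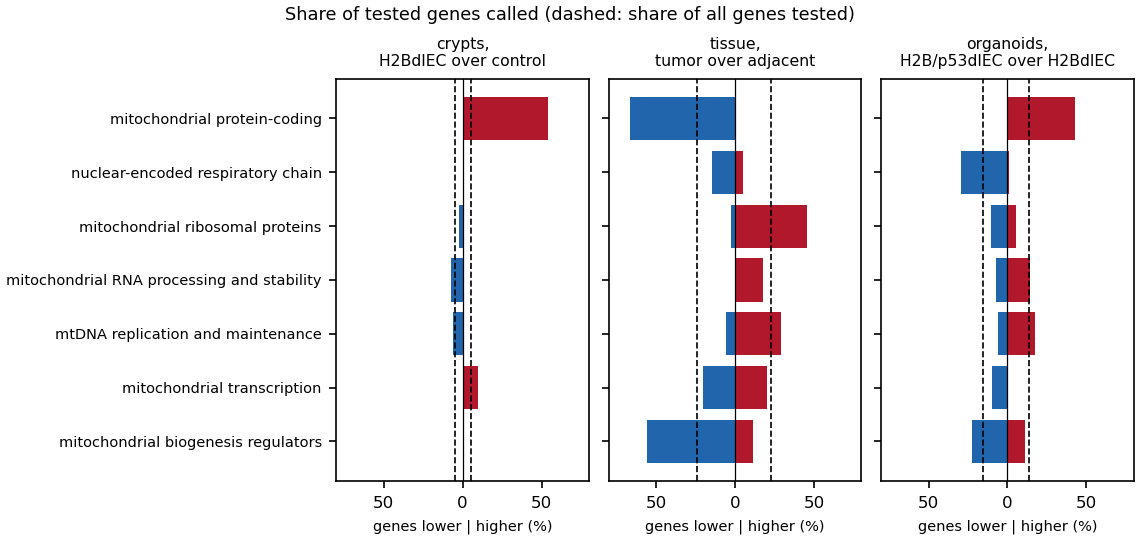
Percent of tested genes called higher (right, red) and lower (left, blue) for the mitochondrial protein-coding genes and 6 lists of nuclear genes that serve mitochondria, in 3 comparisons. Dashed lines mark the percent of all genes tested that were called in each direction, 5.16% higher in crypts and 24.0% lower in tumors. Of the mitochondrial genes 7 of 13 were higher in H2BdIEC crypts, while 0 of 80 nuclear-encoded respiratory chain genes were called there.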

How the data were processed

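RNA was sequenced from 8 crypt, 12 tissue and 9 organoid libraries prepared with a stranded mRNA kit, per the labels' protocols. The deposited values are raw gene counts per library, which the authors made on the GRCm38 build. The submitters' processing notes name cutadapt 1.5 and 1.9, Trimmomatic 0.36, TopHat2 2.0.14 and HTSeq, and the counting options and annotation release are not given in the sources used here. Crypt files also hold summary lines that name no gene and stayed out of totals. In them 10145821 to 14365103 reads of an H2BdIEC and 13059923 to 15846029 of a control library had no unique place in the genome. These reads count for no gene, which touches genes with exact copies. Another 7817633 to 8679864 reads of an H2BdIEC and 10972667 to 13448168 of a control library fell in no gene. Total gene counts were lower in H2BdIEC crypts too, so these read numbers do not compare the loss between genotypes. The part of this loss in the crypt values was not tested.

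Each set was fitted on all its genes with edgeR 4.0.16 in R 4.3.3 (filterByExpr, TMM factors, robust quasi-likelihood test, prior count of 2), with Benjamini-Hochberg adjustment over all genes tested and calls at an adjusted p under 0.05. Each fit held all groups of its set, and the difference between crypts and organoids came from 14 libraries. CPM values were scaled by TMM, and shares and ratios use raw counts. The SE of a log2 fold change was derived from the test's F value. The test recovered known changes on simulated data. These had the same spread for every gene and no outlying library, so they do not measure how the test performs on the present libraries. Alternatives were DESeq2 1.42.0 (its test and its size factors), upper-quartile factors, library sizes without mitochondrial genes, other low-count filters, a non-robust fit, only the 2 groups compared, replicate blocks, and fits without 1 library at a time. Tumor and adjacent tissue of 1 number come from the same mouse, which sets the pairing, and the correlations of their deviations from the group means over genes were 0.0641, 0.120, -0.164 and 0.156. No 2 libraries of a group agreed within sampling noise, but the H2B/p53dIEC organoids came nearest to it. Their chi-square per degree of freedom over genes was 1.93 to 2.69, against 3.63 to 17.8 in H2BdIEC and 7.78 to 7.97 in control organoids. Whether these libraries are technical repeats cannot be told from the labels, so the spread behind their p-values may be too small. Gene positions, lengths and sequences came from GENCODE M21. All mitochondrial genes that passed the filter could be named, and for other lists the 4 with the smallest p. Members and lists were chosen with earlier results of these data known.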

Additional observations from a re-analysis of the deposited data

Results flagged for a closer look

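Control library Crypt_981 stood apart from the other 3 control crypts in 7 measures, in each of which the gap to the nearest control exceeded Dixon's 95% critical value for 4 samples. The share of all mitochondrial genes was 10.4% of its counts, the rRNA share was 8.51% and the ratio of rRNA to protein-coding counts was 4.53. Its mt-Rnr1 level was 10744 CPM, its mt-Rnr2 level 75849 CPM, its mt-Atp8 level 341 CPM and its mt-Nd4 level 744 CPM. Both shares, the ratio and the 2 rRNA levels rest on the same rRNA counts. Crypt_981 also had 1139428 reads that were ambiguous between genes, against 146558 to 300082 in the other crypt libraries. The part of these reads in its values was not tested. Among tissue controls, library 1320 stood apart with a ratio of mt-Rnr2 to mt-Rnr1 counts of 2.98, and it is also the library with 401365 counts. Of 72 pairs of a gene and a group that were checked, 4 were set apart, and by chance about 1 in 20 groups is. The difference between the H2BdIEC effect in crypts and that in organoids passed edgeR's test for 4 protein-coding genes, with log2 values of 1.43 for mt-Nd1, 1.98 for mt-Co1, 1.97 for mt-Nd6 and 1.51 for mt-Cytb.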

How the results depend on the processing

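No single-gene log2 fold change above its SE (107 followed, 36 below it not followed) changed sign in a setting run. The 7 falls in tumors over adjacent tissue of mt-Rnr1, mt-Rnr2, mt-Nd2, mt-Co1, mt-Nd4, mt-Nd5 and mt-Cytb kept their calls in all 17 settings, and mt-Co1 kept its call on the difference between crypts and organoids in all 16. Over all genes the median log2 fold change shifted by less than 0.1 under every scaling. With 1 library left out at a time, single genes lost 120 calls and gained 34, and under other settings they lost 18 and gained 31. The cause of the moves that follow was not tested. Protein-coding genes higher in H2BdIEC crypts numbered 0 to 10 without 1 library and 10 by DESeq2, and changed genes 481 to 1839 without 1 library (1464 with all) and 2390 by DESeq2. Genes lower in tumors over adjacent tissue numbered 5 to 9 without 1 library and 5 with only the 2 groups, and with mouse as a replicate block 6 fell and 6347 genes changed (8293 without the block). For adjacent tissue over controls, changed genes numbered 0 to 223 without 1 library (189 with all; 89 and 84 without adjacent 1319 or 1349, and 32, 2, 53 and 0 without control 1315, 1316, 1320 or 1321), 902 by DESeq2 and 441 with only the 2 groups. In H2BdIEC over control organoids, mitochondrial genes that fell numbered 1 to 5 without 1 library, 7 with no low-count filter and 0 with only the 2 groups, while changed genes numbered 286 to 1185 (637 with all), 1494 and 242. With the organoid letter as a replicate block 0 fell and 167 genes changed; the letters do not pair the libraries, as same-letter libraries correlated at 0.0009, -0.178 and 0.102. In H2B/p53dIEC over H2BdIEC organoids, mitochondrial genes that rose numbered 0 to 6 without 1 library, 7 with no filter, 5 by DESeq2 and 5 with a non-robust fit, and changed genes 2982 to 5483 without 1 library. Over controls 1 fell with no filter and 1 with only the 2 groups. For the difference between crypts and organoids, 7 mitochondrial genes and 1356 genes passed by DESeq2, and 1 to 6 and 218 to 1053 without 1 library (690 with all). Differences in shares moved by less than 1 SD under every alternative run. Depth limits tRNA genes and all values of tissue control 1320.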
